A study of Homo sapiens with 15 samples.

Results

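The genes described here are 8 genes of prostaglandin synthesis and breakdown: PLA2G4A, PTGS1, PTGS2, PTGES, PTGES2, PTGES3, HPGD and PTGR1. They were found by symbol among the 26485 gene symbols of both deposited count tables, and all 8 were present. The choice used measured values in part: PTGS1 was chosen with its lower level after both knockdowns already known, so that difference is given as a description with no test. The other members, too, were chosen with earlier results of these data known, so their p-values do not come from a blind choice. All 8 passed the filter on low counts in every comparison.

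The cells were PSN-1, an established human line of pancreatic ductal adenocarcinoma. In the first experiment they carried a control siRNA (siControl), an siRNA against MondoA (siMondoA) or an siRNA against its partner MLX (siMLX) for 72 hours. In the second experiment they received the vehicle DMSO or SBI477, a compound that the labels call an inhibitor of MondoA, for 72 hours. Each of the 5 groups had 3 libraries, and no dose of SBI477 is given in the sources used here. One cell line was used, and the labels do not say whether the libraries of a group came from separate cultures. The p-values therefore reflect the spread among those libraries alone, and that spread may be technical. The study asked how transcription changes when MondoA is lost or inhibited. MondoA, the product of MLXIP, is a transcription factor that responds to glucose and pairs with MLX on DNA, and TXNIP and ARRDC4 are its best known targets.

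Prostaglandins are lipid signals made from arachidonic acid. Phospholipase A2 enzymes, chiefly the cytosolic enzyme encoded by PLA2G4A, free arachidonic acid from membranes, and the cyclooxygenases PTGS1 (COX-1) and PTGS2 (COX-2) turn it into prostaglandin H2, from which terminal synthases such as those of PTGES, PTGES2 and PTGES3 make prostaglandin E2. HPGD begins the breakdown of prostaglandin E2, PTGR1 reduces the product further, and COX-2 is commonly raised in pancreatic cancer, where prostaglandin E2 acts on tumour and neighbouring cells.

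PTGS1 lies at chr9:122370530-122395703 on the plus strand and PTGS2 at chr1:186671791-186680427 on the minus strand (GENCODE v29 annotation, GRCh38). PLA2G4A (chr1:186828953-186988981, plus strand) is the neighbour of PTGS2 on that chromosome among these genes, with 148.525 kb between them. PTGES (chr9:129738331-129753047), PTGES2 (chr9:128120693-128128462) and PTGR1 (chr9:111549722-111599893) lie on the minus strand of the chromosome that also holds PTGS1. PTGES3 is at chr12:56663341-56688408 and HPGD at chr4:174490177-174523154, both on the minus strand. All 8 are annotated as protein-coding, and the counts were summed over each whole gene.

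The sequences before the starts of the cyclooxygenase genes and of PTGES are shown because the 2 cyclooxygenases lay on opposite sides of siControl after MondoA knockdown and PTGES rose after both knockdowns. They are from RefSeq (GRCh38.p14), run 5′ to 3′ on the gene's strand, begin 250 bases before the start and stop 5 bases short of it. Capitals mark a TATA box (TATAAA) or a GC box (GGGCGG) on either strand.
PTGS1, first start, chr9:122370283-122370527, plus strand: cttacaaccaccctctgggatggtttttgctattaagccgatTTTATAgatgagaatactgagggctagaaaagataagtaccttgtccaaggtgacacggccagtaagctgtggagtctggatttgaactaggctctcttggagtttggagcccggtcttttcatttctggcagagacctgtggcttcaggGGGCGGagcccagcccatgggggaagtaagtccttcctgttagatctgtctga
PTGS1, second start, chr9:122375052-122375296, plus strand: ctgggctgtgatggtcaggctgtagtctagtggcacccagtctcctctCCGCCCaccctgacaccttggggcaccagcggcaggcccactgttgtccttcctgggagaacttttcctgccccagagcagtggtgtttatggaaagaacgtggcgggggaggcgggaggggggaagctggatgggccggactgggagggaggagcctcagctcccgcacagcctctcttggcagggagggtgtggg
PTGS2, chr1:186680429-186680673, minus strand: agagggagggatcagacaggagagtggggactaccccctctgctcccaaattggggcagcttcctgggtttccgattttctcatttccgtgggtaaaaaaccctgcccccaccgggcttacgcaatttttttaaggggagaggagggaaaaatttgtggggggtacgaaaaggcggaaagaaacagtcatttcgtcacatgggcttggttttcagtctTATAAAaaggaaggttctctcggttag
PTGES, chr9:129753048-129753292, minus strand: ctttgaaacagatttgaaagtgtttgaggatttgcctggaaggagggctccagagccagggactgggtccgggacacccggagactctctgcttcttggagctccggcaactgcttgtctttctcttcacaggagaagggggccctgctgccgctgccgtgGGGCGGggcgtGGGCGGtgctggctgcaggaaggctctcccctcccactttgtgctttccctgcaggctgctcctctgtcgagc
PTGS2 had a TATA box on its own strand beginning 32 bases before the start and no GC box. PTGS1 had a GC box before each of its starts, at 58 bases before the first and, on the opposite strand, 202 bases before the second. The only TATAAA of PTGS1 was on the opposite strand, 208 bases before its first start. PTGES had 2 GC boxes, 89 and 78 bases before its start, and no TATA box. Among 35116 RefSeq windows of 300 bases (250 before a start and 50 after it), 11.5% held TATAAA and 44.95% held GGGCGG on either strand.

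The 8 genes had 12 such windows in all, and those were searched on both strands for the core of the E-box that MondoA and MLX bind, CACGTG. It was found in 7.26% of all windows. Of these genes, the second window of PTGES2 held it 128 bases before the start, and the first window of HPGD held it 41 bases after the start. PTGS1, PTGS2, PTGES and PTGES3 did not have these 6 letters in their windows, which says nothing about binding elsewhere. The stretch of PTGES2 is shown because it is the only E-box core among these genes that lies before the start of its own window. It is upstream of the second PTGES2 start (chr9:128128144) but downstream of the first (chr9:128128440), and the core is in capitals.
PTGES2, chr9:128128255-128128284, minus strand: cgaaatcagagaCACGTGgtttccaaggcc
The full cyclic AMP response element (TGACGTCA, in 1.85% of windows), the composite C/EBP-ATF element (TGATGCAAT, in 0.236%) and the AP-1 site (TGACTCA, in 4.95%) were in none of the 12 windows. Only these exact letters were searched, so variant forms of the elements may be present.

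The siRNA libraries held 11227343 to 14731691 counts each and the drug libraries 23315440 to 30480362. MLXIP, the gene of MondoA, was at 65.8 to 88.6 CPM (counts scaled to library size) in siControl and 15.7 to 23.4 CPM in siMondoA, and MLX was at 53.0 to 58.8 CPM in siControl and 7.15 to 11.9 CPM in siMLX, so the targeted transcript was low in every library of its knockdown. In replicate 2 of siMLX, TXNIP and ARRDC4 were nearer to siControl than in the other libraries of that group: TXNIP was at 172, 511 and 93.2 CPM in siMLX against 518 to 785 CPM in siControl, and ARRDC4 at 13.7, 40.2 and 11.04 CPM against 47.0 to 62.2 CPM. In the drug libraries TXNIP went against the labels in replicate 2: it was at 145, 39.2 and 204 CPM in the libraries labelled DMSO and at 74.6, 121 and 41.5 CPM in those labelled SBI477. The authors' deposited table of this comparison was matched by a refit of the counts to a median absolute difference in log2 fold change of 0.00446 with replicate 2 exchanged between the 2 groups, and of 0.195 with the labels as given, so the drug results of the 8 genes are also given from replicates 1 and 3. Replicate 2 of siMLX also stood apart in the integrated stress response, a program that reports on amino acid and protein stress: the median of its 14 genes lay 2.65 log2 units above the siControl mean there, against 0.17 and 0.28 in the other 2 siMLX libraries. In siMondoA the same median was 1.74, 3.13 and 2.79. All 10 epithelial and ductal markers were above 1 CPM in every group, with KRT8 highest. Mast cells and platelets are known for PTGS1: the 6 mast cell markers summed to at most 0.442 CPM, and of the 6 platelet markers GP9 was at 0 and ITGB3 made up nearly the whole sum. That sum was 96.7 to 103 CPM in siControl, 33.1 to 60.2 CPM in siMondoA and 84.1 to 109 CPM in siMLX. The 7 fibroblast markers summed to 514 to 827 CPM in the siRNA libraries and to 100.001 to 311 CPM in the drug libraries, with COL3A1 highest. The sum of 7 leukocyte markers was 55.3 to 68.8 CPM in siControl, 72.4 to 93.1 CPM in siMondoA and 69.7 to 100.1 CPM in siMLX. In each of these groups 3 of the 7 had a mean above 1 CPM and CD3E was at 0. The highest marker was CD14 in siControl (mean 24.9 CPM), CD68 in siMondoA (43.4 CPM) and LYZ in siMLX (31.1 CPM). The sum of 6 endothelial markers was 21.2 to 25.0, 27.4 to 38.1 and 26.9 to 37.7 CPM in the same order. Both sums lay higher in every knockdown library than in every siControl library, and their part in the results was not tested.

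Levels between genes were compared per kilobase of annotated exon. In siControl PTGES3 was the most abundant of the 8 at 136 ± 5.90 CPM per kb (SD, n = 3), followed by PTGS2 at 114 ± 47.3 and PTGES at 85.0 ± 5.11, and the spread of PTGS2 covered both neighbours. PLA2G4A stood at 33.8 ± 8.75 and PTGES2 at 22.6 ± 2.17 CPM per kb. PTGR1 at 7.45 ± 0.901, HPGD at 2.99 ± 1.06 and PTGS1 at 2.72 ± 0.754 CPM per kb were the lowest, and the last pair did not differ beyond their spread. In siMondoA the order at the top changed: PTGS2 came first at 389 ± 183 CPM per kb, then PTGES at 113 ± 4.38 and PTGES3 at 54.1 ± 10.1. PTGS1 was the lowest of the 8 in all 5 groups.

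**Figure D1:**
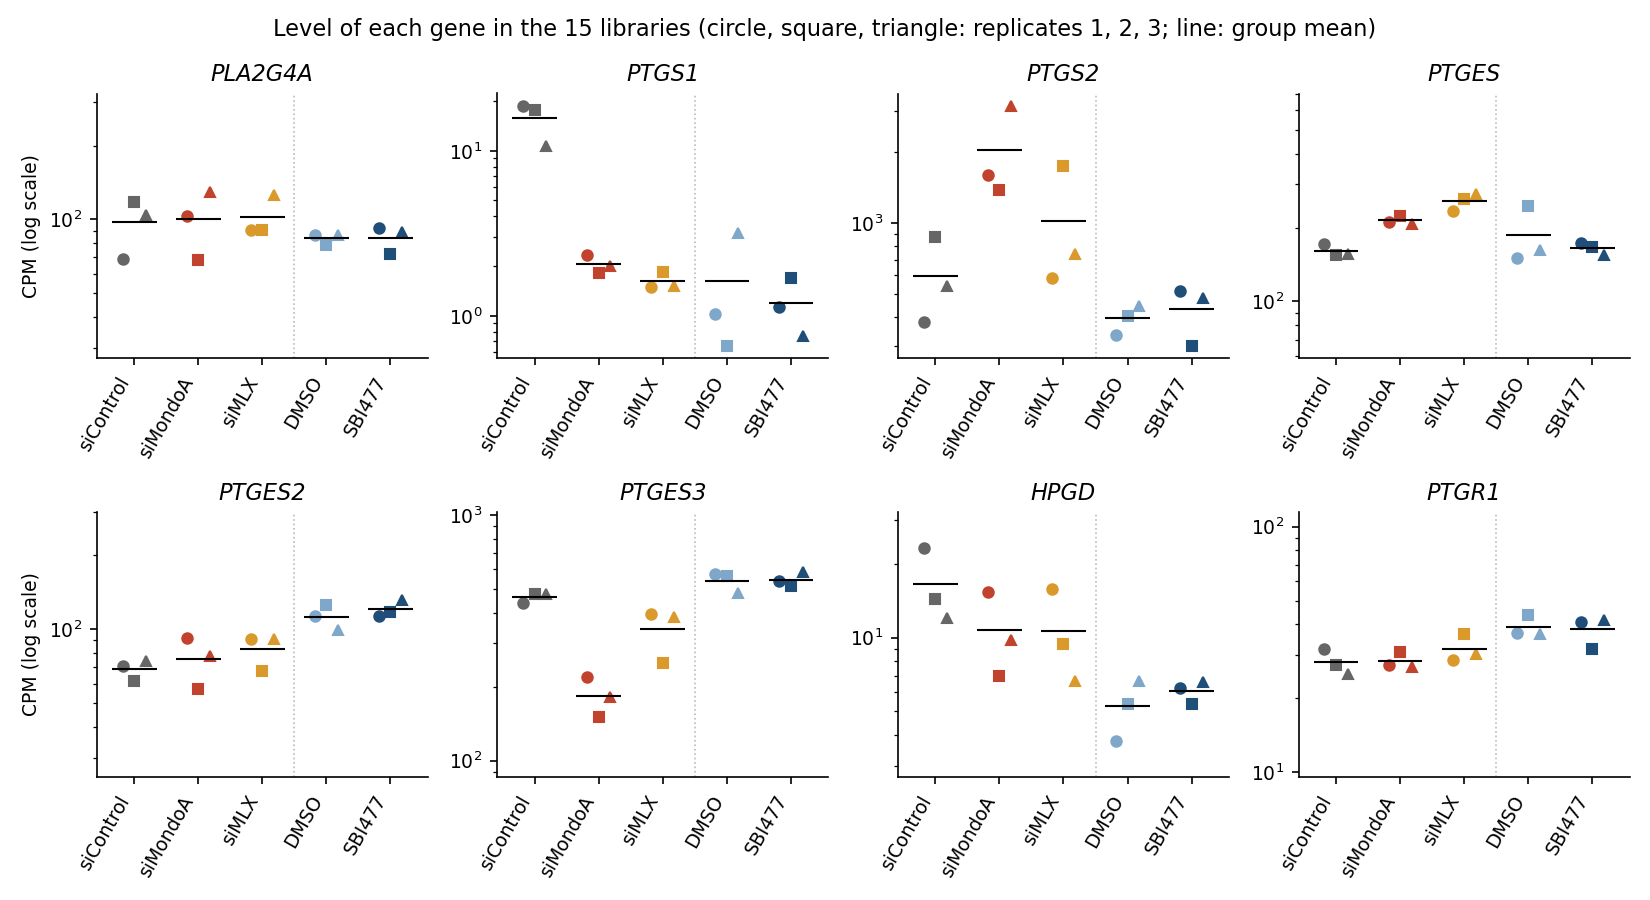
Level of each of the 8 genes in the 15 libraries, in CPM on a log axis whose range differs between panels, by group on the x axis. Symbols mark replicates 1, 2 and 3, horizontal lines the group means, and the dotted line separates the experiments, which were normalized separately. PTGS1 lies between 10.8 and 18.8 CPM in siControl and at or below 3.19 CPM in every other library.

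PLA2G4A, which starts the pathway by releasing arachidonic acid, gave no call. PLA2G4A was at 69.3, 118 and 104 CPM in siControl, at 104, 68.5 and 129 CPM in siMondoA and at 90.6, 90.8 and 126 CPM in siMLX. The 3 groups overlapped. The log2 fold change was 0.04 ± 0.25 (SE) for siMondoA, with a 95% confidence interval of −0.50 to 0.59, and 0.07 ± 0.25 for siMLX, with an interval of −0.48 to 0.62 (edgeR's quasi-likelihood test, adjusted p = 0.907 and 0.885).

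The cyclooxygenases showed the widest differences. PTGS1, the constitutive enzyme, was at 18.8, 17.7 and 10.8 CPM in siControl (15.7 ± 4.36, SD, n = 3), from 165 to 228 counts per library. It was at 2.34, 1.83 and 2.00 CPM in siMondoA and at 1.502, 1.84 and 1.52 CPM in siMLX, from 17 to 30 counts per library. Every knockdown library was lower than every siControl library, which is the pattern for which the gene was chosen. The log2 fold change was −2.93 ± 0.25 for siMondoA and −3.26 ± 0.26 for siMLX, comparisons that share the siControl libraries. Between the 2 knockdowns the log2 difference was 0.34 ± 0.29 (interval −0.30 to 0.97). It is given without a test, since the low level in both groups served to choose the gene. Leaving out each library in turn moved the siMondoA value between −3.14 and −2.78 and the siMLX value between −3.48 and −3.12.

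PTGS2, the inducible enzyme, rose after MondoA knockdown. The siControl libraries stood at 382, 871 and 542 CPM and the siMondoA libraries at 1608, 1386 and 3155 CPM, so that the groups did not overlap, and its highest siMondoA library held 0.311% of all counts. The log2 fold change was 1.78 ± 0.46 (edgeR adjusted p = 0.0181). The call was lost without siControl replicate 1 (1.54, adjusted p = 0.0714), siControl replicate 3 (1.71, adjusted p = 0.0634) or siMondoA replicate 3 (1.32, adjusted p = 0.0722), and the fold stayed positive each time.

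In siMLX, PTGS2 was at 585, 1745 and 738 CPM, and only replicate 2 lay above the range of siControl. The log2 fold change was 0.77 ± 0.45 (edgeR adjusted p = 0.305), and 0.14 ± 0.37 (adjusted p = 0.855) without that replicate. Replicate 2 is the siMLX library in which the stress response genes were high; CHAC1, a stress response gene, was at 0.707, 102 and 1.83 CPM in the 3 siMLX libraries. Whether that state had a part in the PTGS2 level was not tested. The authors' deposited table gives a log2 fold change of 0.69 with an adjusted p of 8.79e-05 for siMLX, from a model with a replicate term. In the direct comparison of siMondoA with siMLX, PTGS2 did not pass (1.00 ± 0.45, edgeR adjusted p = 0.160). It did without siMLX replicate 2 (1.63 ± 0.39, adjusted p = 0.0147).

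**Figure D2:**
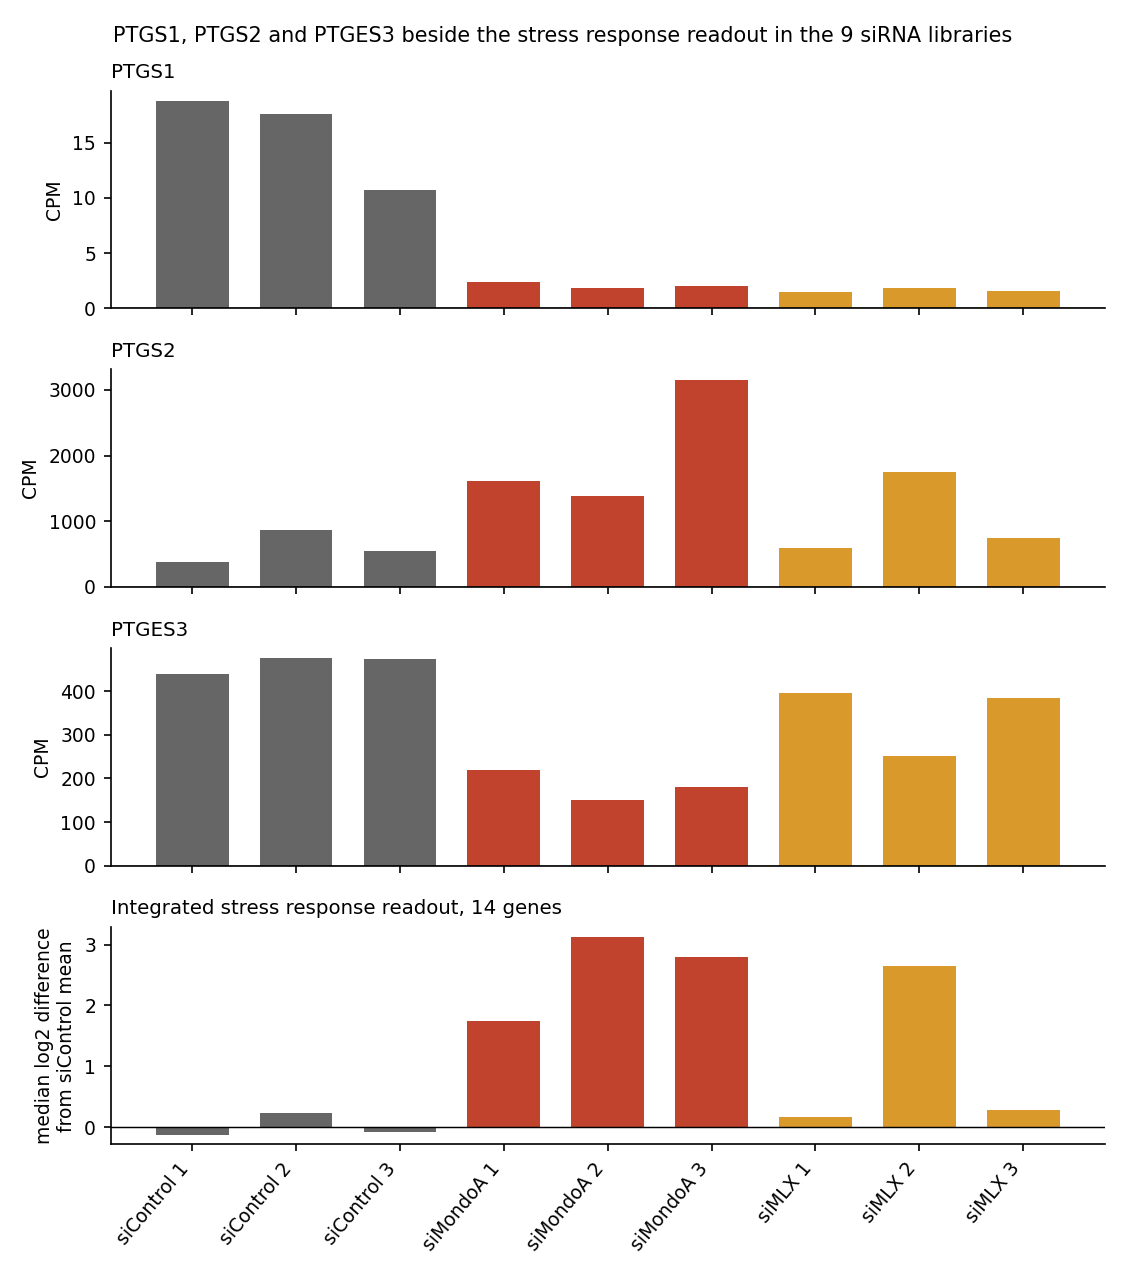
PTGS1, PTGS2 and PTGES3 in CPM, and the median log2 difference of 14 integrated stress response genes from the siControl mean, as bars from 0 for each of the 9 siRNA libraries, coloured by group. In siMLX replicate 2 the stress median is 2.65, PTGS2 is 1745 CPM and PTGES3 is 250 CPM, apart from the other 2 siMLX libraries, and PTGS1 is 1.84 CPM, beside them.

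The ratio of PTGS2 to PTGS1, per length of exon, put both differences in 1 number for each library. In siControl it was 22.3, 54.2 and 55.4. It was 754, 834 and 1734 with siMondoA and 428, 1040 and 533 with siMLX. PTGS2 was thus the main cyclooxygenase transcript in every library, the controls included. In the drug experiment the ratio was 358, 678 and 154 in the libraries labelled DMSO and 502, 193 and 705 in those labelled SBI477. PTGS1 counts of 15 to 101 per drug library lie under these ratios, and the choice of PTGS1 by its fall fixes their direction in the siRNA experiment.

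Of the 3 prostaglandin E synthases, PTGES, the inducible microsomal enzyme that works with COX-2, rose after both knockdowns. It was at 172, 155 and 156 CPM in siControl, at 212, 223 and 207 CPM in siMondoA and at 234, 260 and 274 CPM in siMLX. Neither knockdown group overlapped with siControl. The log2 fold change was 0.41 ± 0.10 for siMondoA (edgeR adjusted p = 0.0159) and 0.67 ± 0.10 for siMLX (adjusted p = 0.00516). The siMondoA call was lost without siControl replicate 2 (0.38, adjusted p = 0.0668) or siControl replicate 3 (0.39, adjusted p = 0.0556). The 2 knockdowns did not differ past the threshold (−0.26 ± 0.10, interval −0.48 to −0.04, adjusted p = 0.115).

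PTGES3, also known as p23, is an HSP90 co-chaperone as well as a cytosolic prostaglandin E synthase. It fell after MondoA knockdown, from 440, 475 and 475 CPM in siControl to 220, 151 and 181 CPM in siMondoA. Every siMondoA library was below every siControl library, and the log2 fold change was −1.33 ± 0.19 (edgeR adjusted p = 0.00145), with values of −1.48 to −1.21 and adjusted p-values of 0.000101 to 0.00929 when each library was left out. In siMLX it was at 396, 250 and 385 CPM, below siControl in all 3 libraries, and the difference did not pass (−0.43 ± 0.18, adjusted p = 0.169). The authors' deposited table gives −0.46 with an adjusted p of 0.0448. The lowest of these was replicate 2, the library high in stress response genes, and without it the value was −0.25 ± 0.15 (adjusted p = 0.349). PTGES3 was lower in siMondoA than in siMLX (−0.90 ± 0.18, adjusted p = 0.0124). That call was lost without siMLX replicate 1 (−0.79, adjusted p = 0.0501) or siMLX replicate 3 (−0.81, adjusted p = 0.0524). GENCODE lists 5 processed pseudogenes of PTGES3, none of which is a row of the count tables. Whether reads from such copies were counted for PTGES3 cannot be told from the counts.

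PTGES2, another membrane-associated synthase, gave no call. It was at 70.7, 61.4 and 74.2 CPM in siControl, at 91.8, 57.0 and 77.8 CPM in siMondoA and at 91.4, 67.8 and 91.0 CPM in siMLX. Its log2 fold changes were 0.14 ± 0.18 (interval −0.26 to 0.53, edgeR adjusted p = 0.599) and 0.28 ± 0.18 (interval −0.12 to 0.67, adjusted p = 0.362). It is the gene with the E-box core printed above.

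Of the breakdown enzymes, HPGD, which inactivates prostaglandin E2, was at 23.2, 14.4 and 11.99 CPM in siControl. It was at 15.3, 6.99 and 9.76 CPM in siMondoA and at 15.8, 9.45 and 6.63 CPM in siMLX. The groups overlapped, and the log2 fold changes of −0.62 ± 0.37 (adjusted p = 0.226) and −0.64 ± 0.37 (adjusted p = 0.308) did not pass edgeR's test. The authors' deposited table gives −0.64 with an adjusted p of 0.0498 for siMondoA and −0.67 with an adjusted p of 0.0425 for siMLX. Each siMondoA and each siMLX library was below the siControl library of the same number. Same-numbered siMLX and siControl libraries deviated together over all genes, and with the replicate number as a block HPGD passed in siMLX (−0.66 ± 0.19, edgeR adjusted p = 0.0462). HPGD passed with the block in siMondoA too, where same-numbered libraries correlated less (0.136, 0.0881 and 0.0084). PTGR1, a reductase of prostaglandins and leukotriene B4, was at 25.0 to 31.7 CPM in siControl, 26.7 to 30.7 CPM in siMondoA and 28.7 to 36.4 CPM in siMLX. Its log2 fold changes were 0.01 ± 0.14 (interval −0.30 to 0.32) and 0.18 ± 0.14 (interval −0.13 to 0.49), and neither passed. An antisense-strand neighbour, ZNF483, overlaps it and had 1 to 8 counts in the siRNA libraries.

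With PTGS1 set aside, 3 of 7 genes passed in siMondoA against siControl (PTGS2 and PTGES up, PTGES3 down), where 27.2% of all 13001 genes tested passed (14.2% up and 12.9% down). In siMLX against siControl 1 of 7 passed (PTGES, up), where 8.41% of all genes did (3.72% up and 4.69% down), and 2 of 7 with the block (PTGES and HPGD), where 1815 genes passed in place of 1094. With the block HPGD also passed in siMondoA against siControl. Both comparisons also served to choose PTGS1 and share the siControl libraries, so nothing is read from these counts. In siMondoA against siMLX, with PTGS1 again set aside, 1 of 7 passed (PTGES3), against 12.9% of all genes (6.66% up and 6.21% down), a share close to the background. In these bulk libraries fewer cells with a transcript and less of it per cell cannot be told apart.

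**Figure D3:**
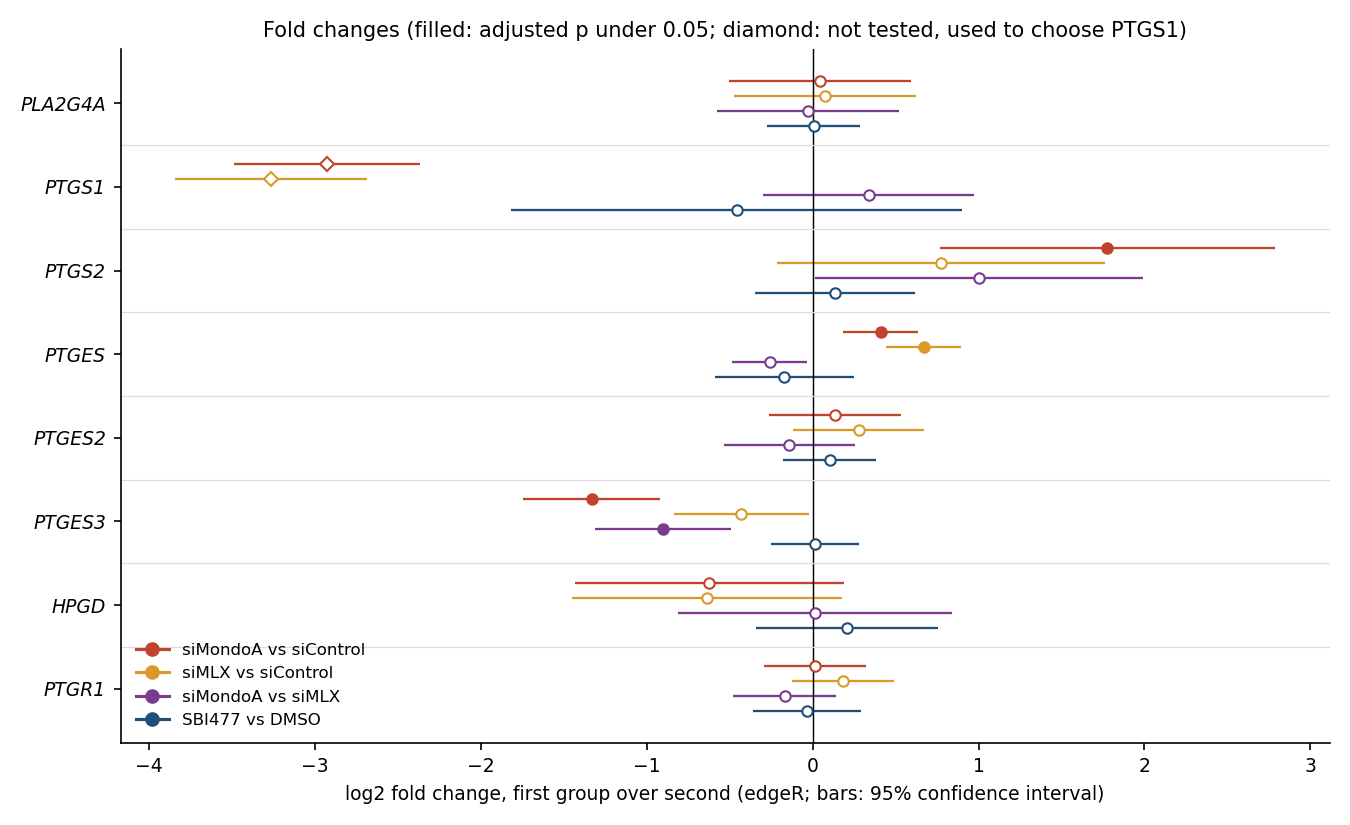
Log2 fold change of each of the 8 genes in 4 comparisons, with 95% confidence intervals from edgeR. Filled symbols passed an adjusted p of 0.05, open symbols did not, and diamonds are the PTGS1 values used to choose the gene. The open circle of PTGS1 for siMondoA against siMLX is also a description with no test. PTGS2 lies at 1.78 and PTGES3 at −1.33 in siMondoA against siControl, and all 8 intervals for SBI477 against DMSO include 0.

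SBI477 gave no call among the 8 genes. PTGS1 was already low in this experiment, at 1.03, 0.652 and 3.19 CPM in the libraries labelled DMSO (15 to 101 counts), nearer to the knockdown libraries of the first experiment (1.502 to 2.34 CPM) than to siControl (10.8 to 18.8 CPM). In the libraries labelled SBI477 it was at 1.13, 1.70 and 0.752 CPM. The log2 fold change was −0.46 ± 0.59 (interval −1.82 to 0.90) and turned to 0.49 without DMSO replicate 3. Replicates 1 and 3 alone gave −1.15 ± 0.50 (edgeR adjusted p = 0.139). The authors' deposited table, which the counts matched with replicate 2 exchanged between the groups, gives −1.20 with an adjusted p of 0.0398.

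PTGS2 was at 336, 402 and 445 CPM in the libraries labelled DMSO and at 516, 300 and 482 CPM in those labelled SBI477. The groups overlapped (log2 fold change 0.13 ± 0.21, interval −0.35 to 0.61). Replicates 1 and 3 alone gave 0.35 ± 0.12 (edgeR adjusted p = 0.0770). The authors' deposited table, matched with replicate 2 exchanged, gives 0.39 with an adjusted p of 0.0469. PTGES was at 150, 245 and 163 CPM against 174, 167 and 155 CPM, and PTGES3 at 576, 563 and 479 CPM against 537, 514 and 583 CPM. Their log2 fold changes were −0.17 ± 0.18 and 0.01 ± 0.11, with intervals of −0.59 to 0.25 and −0.25 to 0.28. Replicates 1 and 3 alone gave 0.07 ± 0.09 for PTGES and 0.09 ± 0.10 for PTGES3 (edgeR adjusted p = 0.615 and 0.588).

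The other 4 genes also overlapped between the drug groups. HPGD was at 3.79 to 6.63 CPM in the libraries labelled DMSO and 5.36 to 6.59 CPM in those labelled SBI477, PTGES2 at 98.8 to 126 and 113 to 132 CPM, PLA2G4A at 78.8 to 86.7 and 72.1 to 92.1 CPM, and PTGR1 at 36.5 to 43.8 and 31.8 to 41.8 CPM. In replicates 1 and 3 alone their log2 fold changes were 0.30 ± 0.25, 0.21 ± 0.11, 0.07 ± 0.08 and 0.17 ± 0.09 in the same order (edgeR adjusted p = 0.436, 0.195, 0.619 and 0.183). Of 14023 genes 0% passed edgeR's test here, and 409 (2.92%) had an unadjusted p under 0.05, with 0 of the 8 genes among them. DESeq2 called 0 genes. Replicates 1 and 3 alone gave 2575 calls, 18.1% of 14232 genes, again with 0 of the 8.

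The SBI477 effect was then set against the siMondoA effect in 1 fit of all libraries. The fall of PTGES3 after knockdown was not matched by the compound: the difference between the effects was 1.36 ± 0.24 on the log2 scale (edgeR adjusted p = 0.00532), and it stayed at 1.24 to 1.49 with adjusted p-values of 0.000527 to 0.0186 when each library was left out. For PTGS2 the difference of −1.63 ± 0.57 did not pass (adjusted p = 0.0874). It passed with no filter on low counts (adjusted p = 0.0397) and without siMLX replicate 2 (adjusted p = 0.0314). For PTGES it was −0.56 ± 0.21 (adjusted p = 0.110), and for HPGD 0.85 ± 0.48 (adjusted p = 0.286). With replicates 1 and 3 of the drug groups alone, the differences were 1.44 ± 0.27 for PTGES3 (edgeR adjusted p = 0.00932), −1.40 ± 0.64 for PTGS2 (0.164), −0.31 ± 0.15 for PTGES (0.170) and 0.95 ± 0.56 for HPGD (0.277). With PTGS1 set aside, 1 of 7 genes passed, where 7.67% of 13681 genes did (3.84% up and 3.83% down). The experiments used separate controls, in which PTGS1 itself stood apart: 15.7 ± 4.36 CPM (SD, n = 3) in siControl and 1.62 ± 1.37 CPM (SD, n = 3) in DMSO, on scales normalized separately. TXNIP and ARRDC4 stood apart too, with means of 695 and 52.8 CPM in siControl and 130 and 13.8 CPM in the libraries labelled DMSO. In siMondoA their means were 148 and 12.5 CPM. The fibroblast marker sum given above was also lower in the drug libraries. The part of these genes and markers in the difference between effects was not tested.

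Further genes were read from lists of the pathway, control of PTGS2, HSP90 partners of PTGES3, NRF2 targets and the integrated stress response. Together they named 132 genes besides the 8, of which 103 were tested in the siRNA experiment. The lists were chosen with earlier results of these data known, so nothing is read from their counts. After MondoA knockdown 31 rose and 13 fell, with a median log2 fold change of 0.065 against 0.0039 over all genes tested, where 14.2% of all genes rose and 12.9% fell. All 14 genes of the stress response list are among those that rose, so these totals do not describe the prostanoid pathway alone. Among 16 tested genes of arachidonate release and supply 2 rose and 4 fell. ACSL4, which activates arachidonic acid for return to membrane lipids, rose from 383, 514 and 426 CPM to 1060, 850 and 1583 CPM (1.40 ± 0.21, edgeR adjusted p = 0.00207). PLA2G12A, a secreted phospholipase A2, fell from 42.7 to 49.3 CPM to 25.4 to 35.4 CPM (−0.60 ± 0.14, adjusted p = 0.0114).

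Of the 11 prostanoid synthases tested without PTGS1, the members described above included, 3 rose and 4 fell after MondoA knockdown. Over all genes 14.2% rose and 12.9% fell. PTGIS, prostacyclin synthase, fell from 78.0, 37.8 and 36.3 CPM in siControl to 17.6, 15.6 and 11.8 CPM in siMondoA (−1.75 ± 0.33, edgeR adjusted p = 0.00504). It was at 23.9, 17.5 and 11.96 CPM in siMLX (−1.51 ± 0.33, adjusted p = 0.0210), a call lost without siControl replicate 1 (−1.06, adjusted p = 0.0721) or siMLX replicate 3 (−1.29, adjusted p = 0.0708). In both knockdowns every library was below every siControl library.

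AKR1B1, an aldo-keto reductase that can make prostaglandin F2 alpha, went in opposite directions in the 2 knockdowns. It was at 621, 718 and 524 CPM in siControl, 1060, 1048 and 980 CPM in siMondoA (0.73 ± 0.12, edgeR adjusted p = 0.00322) and 385, 397 and 356 CPM in siMLX (−0.71 ± 0.12, adjusted p = 0.00924). The 3 groups did not overlap, and the direct difference between the knockdowns was 1.44 ± 0.13 (adjusted p = 0.000306).

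For the next 3 lists the shares over all genes after MondoA knockdown were 14.2% up and 12.9% down, 27.2% in either direction. Of 11 breakdown and transport genes 0 rose and 3 fell, with a median of −0.68 against 0.0039 over all genes tested. As the lists were chosen with earlier results known, nothing is read from these counts. ZADH2, a prostaglandin reductase, fell from 71.7 to 78.0 CPM to 32.8 to 43.9 CPM (−0.97 ± 0.15, edgeR adjusted p = 0.00252), and ABCC4, an exporter of prostaglandin E2, fell from 62.2 to 69.6 CPM to 38.7 to 42.7 CPM (−0.68 ± 0.12, adjusted p = 0.00412). The other, the uptake carrier SLCO2A1, was below a mean of 1 CPM. Of 5 receptors tested 2 rose, PTGER2 (the EP2 receptor of prostaglandin E2, from 27.3 to 32.6 CPM to 46.5 to 52.8 CPM, 0.73 ± 0.14, adjusted p = 0.00648) and PPARG (0.69, and adjusted p = 0.0577 to 0.0796 without any siControl library or without siMondoA replicate 2 or 3). PTGER1, PTGER3 and PTGER4 did not pass the filter on low counts. In the lipoxygenase and leukotriene arm 0 of 10 rose and 2 fell, among them LTA4H, which makes leukotriene B4, from 205 to 244 CPM to 105 to 144 CPM (−0.82 ± 0.13, adjusted p = 0.00284).

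Of 19 tested genes that act on PTGS2 expression 11 rose and 0 fell after MondoA knockdown, with a median of 0.78, beside 14.2% up and 12.9% down over all genes. Since earlier results of these data were known when this list and the stress response list were chosen, that share is no independent reference for them. FOSL1, a subunit of AP-1, rose from 23.5, 18.4 and 23.7 CPM to 66.9, 104 and 94.7 CPM (2.01 ± 0.27, edgeR adjusted p = 0.00120). CEBPB, a transcription factor of the C/EBP family, rose from 108 to 114 CPM to 271 to 380 CPM (1.51 ± 0.22, adjusted p = 0.00161). ZFP36, which promotes decay of AU-rich transcripts such as that of PTGS2, rose from 12.8 to 15.01 CPM to 31.6 to 35.1 CPM (1.26 ± 0.19, adjusted p = 0.00181), so the list holds activators and an inhibitor of PTGS2 that rose together. All 14 genes of the stress response list, CEBPB among them, rose in the same comparison. Of 14 HSP90 chaperones and co-chaperones that work with PTGES3, 0 rose and 1 fell, HSPA8 (−0.88 ± 0.26, adjusted p = 0.0301, and 0.0634 to 0.0947 without any siControl library or without siMondoA replicate 2 or 3). Of 17 NRF2 targets, the set to which PTGR1 belongs, 3 rose and 0 fell.

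After MLX knockdown 6 of the 103 genes rose and 6 fell, with a median of 0.032 against 0.018 over all genes, where 3.72% rose and 4.69% fell. Of the 19 genes acting on PTGS2 5 rose and 0 fell, among them ZFP36 (1.22 ± 0.19, edgeR adjusted p = 0.00516) and CEBPB (0.79 ± 0.21, adjusted p = 0.0482). The others were JUN (1.71 ± 0.39, edgeR adjusted p = 0.0267) and IL6 (2.93 ± 0.75, adjusted p = 0.0405). IL1A was also called, at 3.26 ± 0.87 (edgeR adjusted p = 0.0456). Of 6 fits that each left out 1 library, the call was lost in 3 for JUN, 3 for IL6 and 5 for IL1A. ZFP36 kept its call in all of them. CEBPB was highest in siMLX replicate 2, at 271 CPM against 160 and 148 CPM in the other libraries. Its call was lost without that library (0.46, adjusted p = 0.0795) or without any 1 siControl library (0.76 to 0.80, adjusted p = 0.117 to 0.153). The receptors gave 1 rise, PTGFR, the receptor of prostaglandin F2 alpha, which was named after its values were seen. It had 1 to 4 counts in the siControl libraries and 9, 32 and 17 counts in siMLX. Its mean was 0.168 CPM in siControl, 0.370 CPM in siMondoA and 1.52 CPM in siMLX. The filter on low counts kept it through the siMLX libraries, where it was high. PTGFR is therefore described with no test, though it is among the 6 counted above.

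**Figure D4:**
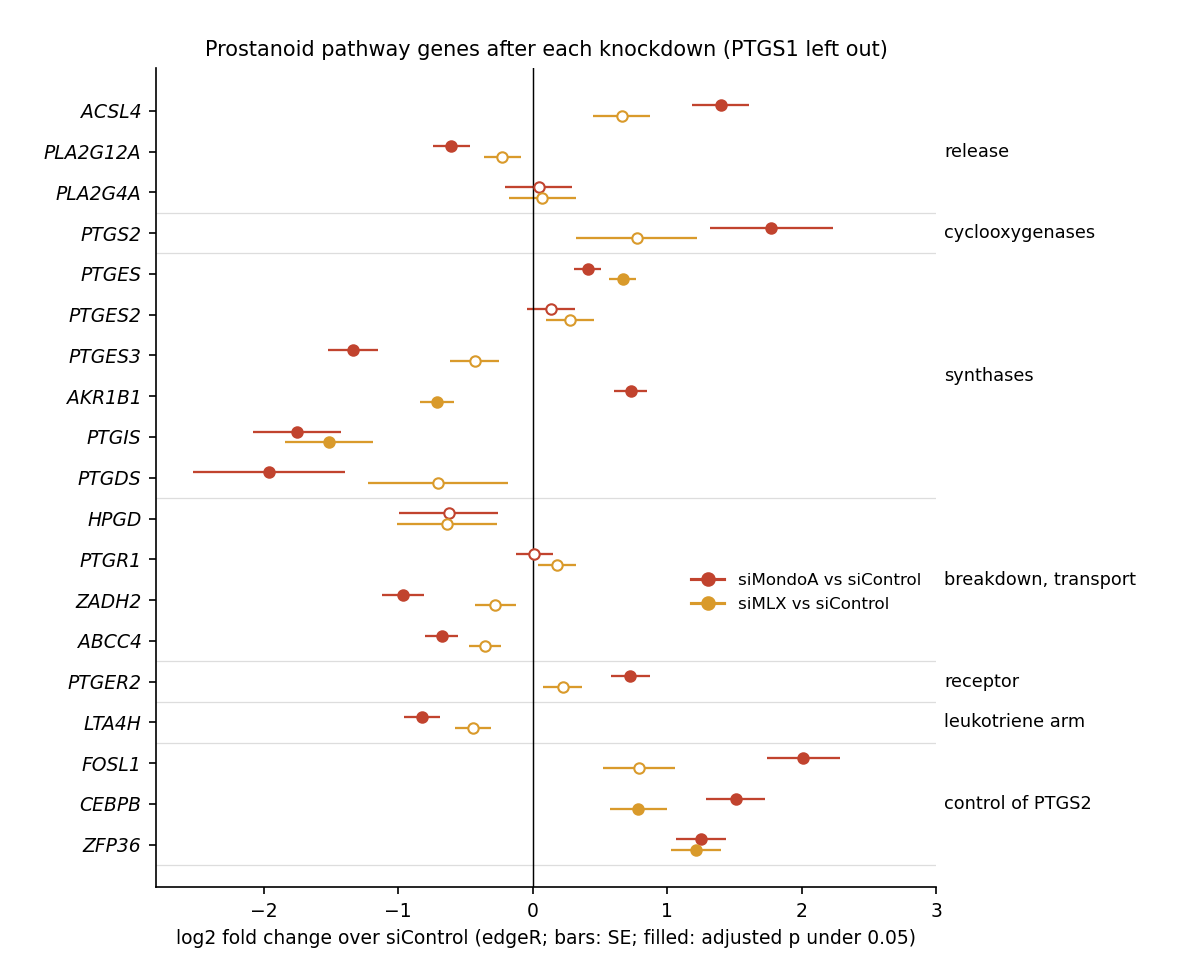
Log2 fold change over siControl, with its SE, of the members other than PTGS1 and of named pathway genes after MondoA or MLX knockdown, grouped by role. Filled symbols passed an adjusted p of 0.05. AKR1B1 lies at 0.73 in siMondoA and −0.71 in siMLX, and PTGIS at −1.75 and −1.51.

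In the drug experiment 0 of the 105 listed genes tested passed. PTGIS, chosen after its values were seen, followed TXNIP across the 6 libraries: it was at 16.0, 4.82 and 28.1 CPM in the libraries labelled DMSO and at 5.30, 24.4 and 5.44 CPM in those labelled SBI477. Over all 6 libraries its log2 fold change was −0.49 ± 0.73, and in replicates 1 and 3 it was −2.04 ± 0.24 (edgeR adjusted p = 0.00156). The authors' deposited table, matched with replicate 2 exchanged, gives −2.12 with an adjusted p of 1.27e-22. In replicates 1 and 3 alone 34 of 106 listed genes passed (32.1%), beside 18.1% of all genes.

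**Figure D5:**
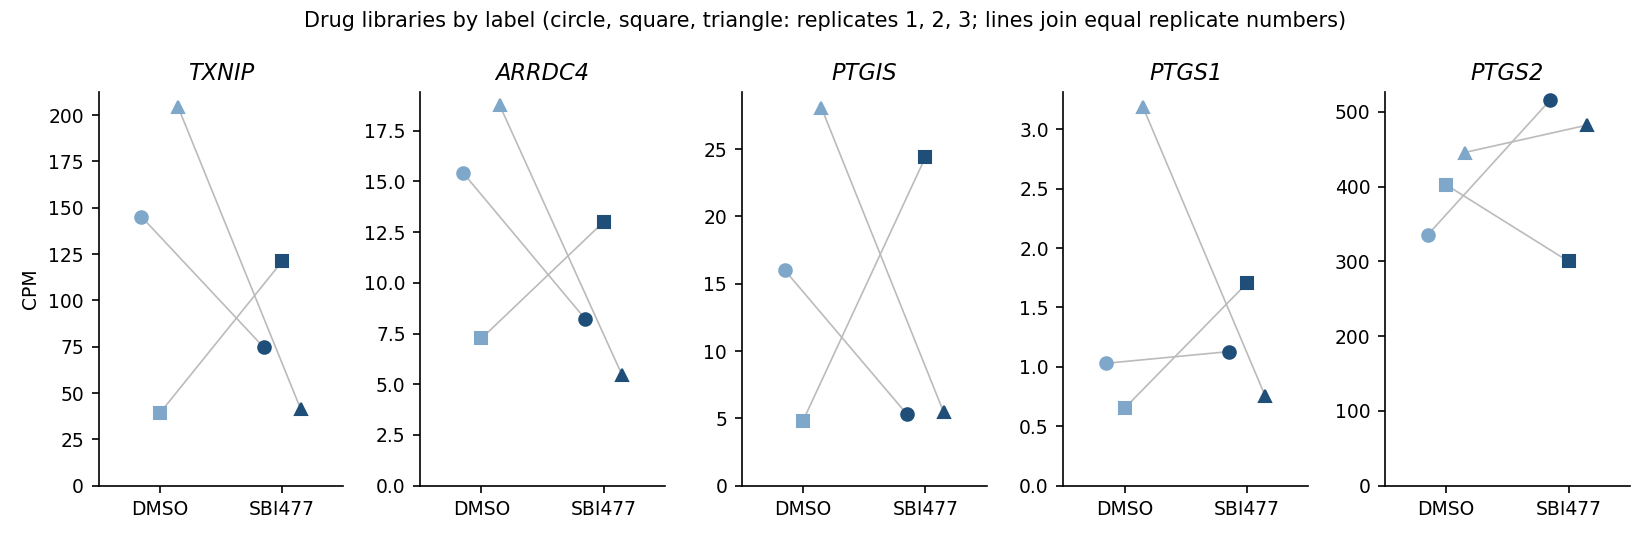
Levels in CPM of TXNIP, ARRDC4, PTGIS, PTGS1 and PTGS2 in the 6 drug libraries by label, with axes from 0 and lines joining equal replicate numbers. In replicate 2 TXNIP rises from 39.2 to 121 CPM and PTGIS from 4.82 to 24.4 CPM from the library labelled DMSO to that labelled SBI477, the reverse of replicates 1 and 3.

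The genes whose log2 CPM followed PTGS1 most closely over the 9 siRNA libraries, among 10860 genes that averaged 4 CPM or more, were LGALS8 (Pearson r = 0.989), GUSB (0.986), ABHD16A (0.978), C7orf55 (0.972) and RASGRP3 (0.971). Those nearest to PTGS2 were TBC1D22B (0.962), PPP1R12A (0.955), SH2B3 (0.954), CWC22 (0.954) and METTL6 (0.952). The 9 libraries fall into the 3 siRNA groups, so these values largely describe shared group differences and carry no p-value. Ranking by Spearman correlation kept 0 of the 5 genes for PTGS1 and 1 of the 5 for PTGS2. RASGRP3 had a mean of 11.1 CPM in siControl and of 3.50 and 3.39 CPM in siMondoA and siMLX. LGALS8 had means of 99.5, 78.3 and 75.8 CPM in the same order.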

How the data were processed

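RNA of PSN-1 cells was sequenced as 25-base read pairs from Kapa libraries made with 500 ng of RNA, per the labels' protocols, with 15 libraries grouped by title. The submitters' processing notes name HTSeq 0.6.1, TopHat2 2.1.0, edgeR and bcl2fastq 1.8.4, and hg38 and mm10 as builds. No source used here gives the strandedness. The authors deposited raw counts per gene symbol, per the file headers. The same tables hold the authors' log2 fold changes and adjusted p-values, per the file headers, which are credited wherever printed.

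Counts were tested in R 4.3.3 with edgeR 4.0.16 (filterByExpr, TMM, quasi-likelihood test, no replicate term). The 9 siRNA libraries made 1 fit, the 6 drug libraries another, and all 15 the fit of the difference between effects. Adjusted p-values are Benjamini-Hochberg values over all genes tested, with a threshold of 0.05, and each SE was derived from the F statistic. CPM carry TMM factors of their own experiment. Alternatives were RLE factors, DESeq2 1.42.0, no filter on low counts, a replicate block, only the 6 libraries compared, replicates 1 and 3 of the drug groups, and each library left out. Leaving siMLX replicate 2 out of the fits for siMondoA against siControl and for the difference between effects was added after seeing the data, as were the TATA and GC box searches.

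Deviations from the group means correlated over all genes between same-numbered siMLX and siControl libraries (0.268, 0.188 and 0.359), so a blocked value is printed in that comparison where it changed a call or a count. Library totals of 11227343 to 30480362 counts put the floor of 3 counts at 0.0984 to 0.267 CPM, for counting error only.

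The members and gene lists were chosen with earlier results of these data known. Named were all members and, per list and comparison, up to 4 called genes with the smallest adjusted p and a mean of at least 1 CPM. Of 140 listed genes 138 were found by their symbol and 2 under an older one. The tests were tried on simulated counts. Figures were drawn with matplotlib 3.10.9.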

Additional observations from a re-analysis of the deposited data

Results flagged for a closer look

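PTGES3 differed between the siMondoA and SBI477 effects by a test of the difference itself: 1.36 ± 0.24 on the log2 scale (edgeR adjusted p = 0.00532). Its level was 463 ± 20.1 CPM in siControl and 184 ± 34.4 CPM in siMondoA (SD, n = 3), and 539 ± 52.3 CPM in DMSO and 545 ± 35.1 CPM in SBI477. With replicates 1 and 3 of the drug groups alone the difference was 1.44 (adjusted p = 0.00932). The 2 effects come from separate experiments with separate controls, which cannot be told apart from the agents.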

How the results depend on the processing

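Directions and calls of PTGES3 and PTGES against siControl were kept under RLE factors, DESeq2, no filter, the replicate block and the fit of only the libraries compared. Counts of calls over all genes moved in siMLX against siControl (DESeq2 1645, replicate block 1815, in place of 1094), in siMondoA against siMLX (block 2606, only the 6 libraries compared 706, in place of 1673), in SBI477 against DMSO (replicates 1 and 3 alone 2575, in place of 0) and in the difference between effects (DESeq2 1784, replicates 1 and 3 alone 1595, in place of 1049). Counts of members moved to 2 with the block in siMLX (HPGD joined) and to 2 with no filter in the difference between effects (PTGS2 joined). HPGD also joined the members called in siMondoA against siControl with the block. In siMondoA, where the numbers do not pair the libraries by the check used, HPGD with the replicate block gave −0.63 ± 0.19 (edgeR adjusted p = 0.0280); the block changed no other member's call, and in siMLX no call of a named pathway gene. The cause of these moves was not tested.

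Leaving out each library in turn gave 1745 to 4333 calls over all genes and 1 to 3 members in siMondoA against siControl, 254 to 833 and 1 in siMLX against siControl, 670 to 2970 and 0 to 2 in siMondoA against siMLX, 0 and 0 in SBI477 against DMSO, and 423 to 1680 and 1 to 2 in the difference between effects. Fewer libraries leave fewer degrees of freedom. Some log2 fold changes that had not passed the test changed sign in such fits. In siMondoA these were PTGES2 (−0.027 to 0.30), PLA2G4A (−0.18 to 0.26) and PTGR1 (−0.062 to 0.11). In siMLX it was PLA2G4A (−0.12 to 0.23). Between the knockdowns they were PTGES2 (−0.31 to 0.025), HPGD (−0.33 to 0.41) and PLA2G4A (−0.25 to 0.18). For SBI477 they were PTGS1 (−0.82 to 0.49), PTGS2 (−0.0067 to 0.34), PTGES (−0.30 to 0.071), PTGES3 (−0.063 to 0.065), PLA2G4A (−0.054 to 0.11), PTGR1 (−0.10 to 0.085) and PTGIS (−1.61 to 0.16). In the difference between effects they were PTGES2 (−0.19 to 0.13), PLA2G4A (−0.24 to 0.20) and PTGR1 (−0.12 to 0.089).

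Other reversals were small. The replicate block gave −0.00049 for PLA2G4A under SBI477 and 0.0091 for PTGES2 in the difference between effects. Replicates 1 and 3 alone gave 0.072 for PTGES and 0.17 for PTGR1 under SBI477, and 0.096 for PTGES2, 0.042 for PLA2G4A and 0.18 for PTGR1 in the difference between effects. At 15 to 41 counts in 5 of the 6 drug libraries, PTGS1 is the member whose drug comparison depth limits most.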
